A study of Mus musculus with 22 samples.

Results

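A set of 42 genes that carry out DNA replication was followed across 22 Affymetrix mouse expression arrays of cerebellar granule cells. The genes were picked by symbol for their known role, from origin licensing to nucleotide supply. Their values did not enter the choice, but earlier results of these data were known when it was made. Of the 42 genes, 41 had a probe set that carries 1 gene symbol, out of 18194 genes with such a probe set, and Chaf1a was not analysed here. Each gene was read from its probe set with the highest mean over all 22 arrays. The mean of Orc1, Cdc6 and Tyms lay below the brightness limit of 6.44 on the log2 scale, the median over all probe sets, so 38 of the 10772 tested genes belong to the set.

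All cells came from postnatal day 7 (P7) pups of the strain that the labels write as C56Bl6/J, and the labels name every sample as cerebellar granule neuron progenitors in the source field and as granule neurons (CGNs) in the title. The first comparison set Chd7 mutant CGNs (n = 4) against control CGNs (n = 4), which the labels call wild type. Per the study's methods the mutants were Atoh1-Cre::Chd7 f/f, in which Cre acts in the granule lineage, and the controls were Chd7 f/f. In the second comparison CGNs received the topoisomerase II inhibitor ICRF-193 at 10 µM for 12 h (n = 4), or its solvent DMSO (n = 4). In the third, CGNs received Smo2, as the labels name it (n = 3), or none (n = 3). The paper describes its CGNs as made postmitotic in culture. It also reports Affymetrix arrays of granule cells cultured with the Smoothened agonist SAG, called proliferating progenitors, or without it, called CGNs. No array comparison other than this one, Chd7 and ICRF-193 is described there. By exclusion the Smo2 arrays match it, although the paper does not use that name. The groups of each comparison are biological replicates by their titles, the methods state that male and female pups were not told apart, and the arrays give intensities without counts, so their number limits the precision.

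Before a cell copies its DNA, the origin recognition complex (Orc proteins), Cdc6 and Cdt1 load the MCM helicase onto origins, and geminin (Gmnn) holds Cdt1 back once copying has begun. Cdc45 and the GINS proteins then turn MCM into the active helicase, primase and polymerase alpha start each strand, and polymerases delta and epsilon extend it, held on DNA by the Pcna clamp that replication factor C loads. Granule neuron progenitors divide under sonic hedgehog around the first postnatal week and then leave the cell cycle for good, and replication genes are known to be transcribed mainly in dividing cells, many of them through E2F factors. In RNA from bulk samples, a change in the share of dividing cells and a change in RNA per cell cannot be told apart.

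Several facts on the arrays touch the values that follow. Chd7 itself has a brighter and a dimmer probe set. The dimmer averaged 9.47 in mutant arrays, against 11.50 in control arrays (log2 change -2.03, limma adjusted p = 0.00334 when all probe sets are fitted), and the brighter averaged 11.65 in mutant arrays, against 11.89 in control arrays (limma adjusted p = 0.298). Which of them lies in the deleted part is not stated by the labels or methods. Both Chd7 probe sets were also lower with ICRF-193 than with DMSO when all probe sets are fitted. The dimmer changed by -1.28 (limma adjusted p = 0.00466) and the brighter by -1.35 (limma adjusted p = 0.000742). With Smo2 they changed by -0.72 and -0.67. In the Chd7 and ICRF-193 comparisons the arrays fell into replicates 1 and 2 and replicates 3 and 4, and deviations from the group means correlated by 0.28 to 0.44 within such a set and by -0.45 to -0.21 between sets, over all tested genes. Deviations within a group sum to 0 for each gene, so the negative values follow from the positive ones and add no separate evidence. The labels do not say what these sets are. All 3 measured Y-linked genes were lower in the mutant, with a summed signal of 48 to 399.1 in mutant arrays, against 1221 to 1746 in control arrays, so the sex of the pups and the genotype cannot be told apart. Of the cell type markers, those of granule cells had summed signals of at least 66827 on every array. They summed to 78933 to 86911 in mutant arrays, against 90806 to 92341 in control arrays, with 2 of 9 tested called (Pax6 and Meis1, lower). Purkinje cell markers summed to 7319 to 8251 in mutant arrays, against 12238 to 13119 in control arrays, and of 3 tested Pcp4 was lower and Rora higher. The markers of astrocytes and Bergmann glia summed to 11107 to 37645 in mutant arrays, against 8610 to 19446 in control arrays, and 1 of 10 tested was called (Gja1, higher). Those of the oligodendrocyte lineage summed to 13818 to 17596 in mutant arrays, against 4559 to 10938 in control arrays, with 1 of 6 called (Pdgfra, higher), and those of fibroblasts and pericytes to 5720 to 11670 in mutant arrays, against 3101 to 6063 in control arrays, with 2 of 7 called (Dcn and Pdgfrb, higher). Microglial markers summed to 946.4 to 3750 in mutant arrays, against 2685 to 5157 in control arrays, with 0 of 6 called by limma, and Aif1, C1qa, C1qb and Cx3cr1 were at the intensity floor on 1 or 2 mutant arrays each. Over all tested genes 5.07% were called higher and 3.82% lower in the mutant. The part of these cells and of sex in the Chd7 values was not tested.

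With Smo2 the whole set was higher. All 38 tested replication genes rose, against 29.7% of all 10772 genes (39% fell), where a gene was called at a limma adjusted p under 0.05. The median change was 2.60 on the log2 scale, against -0.09 over all tested genes, and single genes ranged from 0.76 (Rfc2) to 4.62 (Mcm3). Averaged over the 38 genes, the log2 signal was 11.46 ± 0.02 with Smo2 and 9.03 ± 0.02 without it (mean ± SD, n = 3 each). In all 38 genes every array with Smo2 lay above every array without it, against 31.9% of all genes. With each array centred on its median in place of quantile normalization, 38 genes of the set rose as well, while over all genes 4052 rose and 3218 fell, against 3196 and 4197 by quantile normalization, and the median over all genes stood at 0.05. Among markers of other cells, all 6 tested microglial genes fell with Smo2, with a summed signal of 631.7 to 882.6 with Smo2 and 1430 to 1926 without it, 7 of 10 astrocyte and Bergmann glia genes fell and 3 rose, and 8 of 9 granule lineage genes fell and 1 rose. All 3 tested Purkinje cell genes fell (median -1.35), 4 of 5 GABAergic interneuron genes fell and 1 rose (median -1.21), and 3 of 6 oligodendrocyte lineage genes rose and 2 fell. Their part in the result was not tested.

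**Figure D1:**
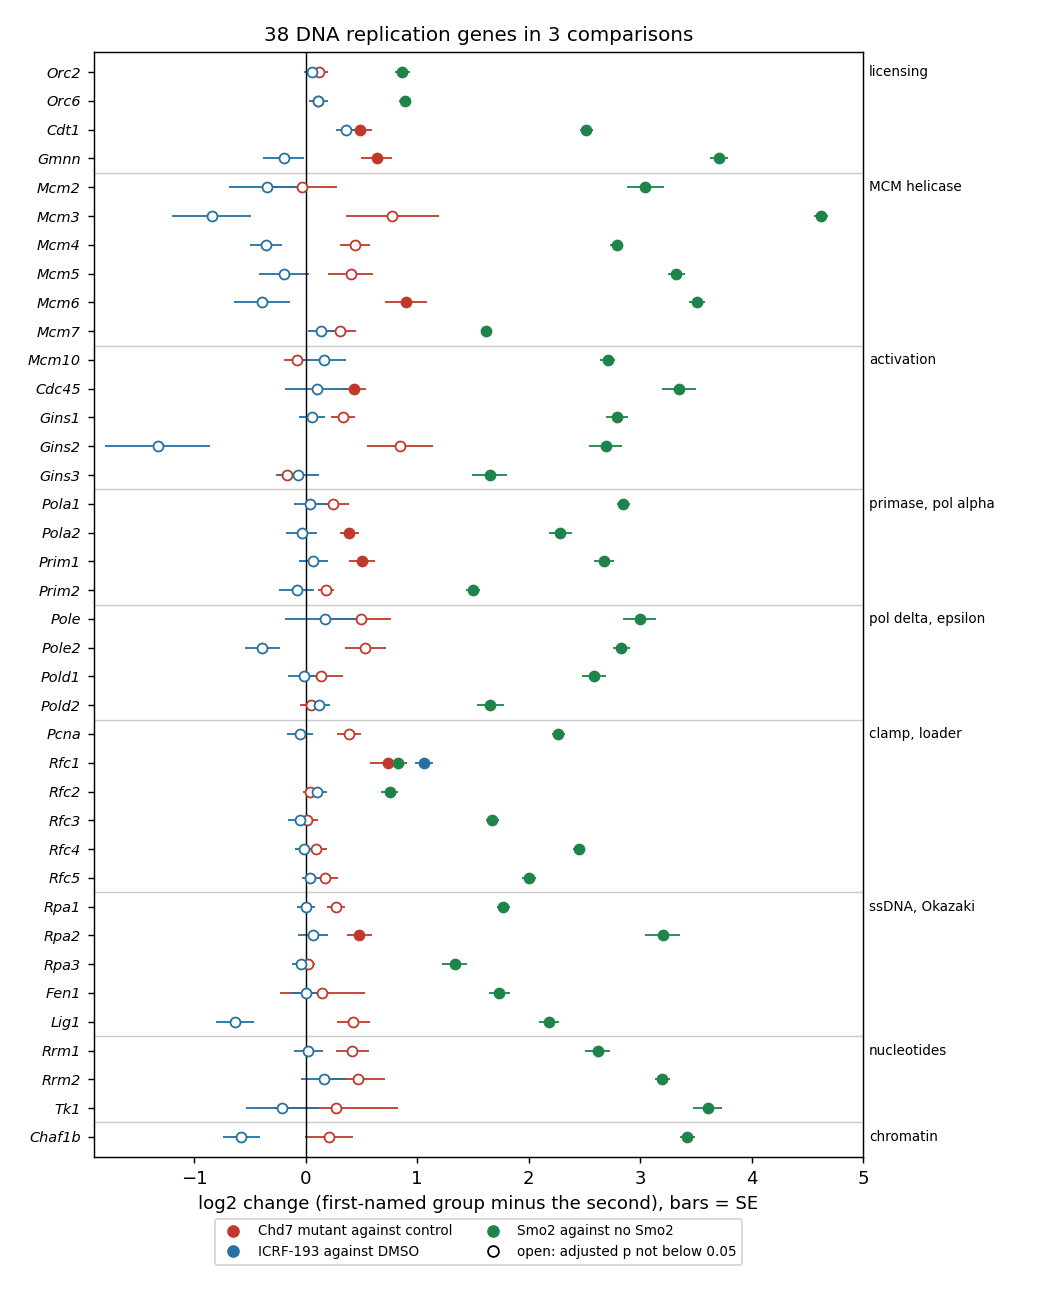
Log2 change of the 38 tested replication genes, ordered by role from top to bottom, in Chd7 mutant against control (red), ICRF-193 against DMSO (blue) and Smo2 against no Smo2 (green) arrays. Points are limma estimates, bars their SE, and filled points have an adjusted p below 0.05. The green points run from 0.76 to 4.62 and are all filled, 8 red points are filled, and Rfc1 is the only filled blue point.

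Among the tested licensing genes, geminin had the largest change. Gmnn stood at 11.37, 11.42 and 11.42 with Smo2, against 7.60, 7.85 and 7.65 without it, a 13.0-fold difference (log2 change 3.71 ± 0.08 SE, limma adjusted p = 1.41e-06). Cdt1, the MCM loading factor that geminin binds, rose by 2.52, while the origin recognition subunits Orc2 and Orc6 rose by 0.87 and 0.89. The other bright Orc2 probe sets gave 1.43 and 1.06. The loading factor Cdc6 was dim on average but bright in 1 group, at 10.48, 10.44 and 10.48 with Smo2, against 5.70, 5.13 and 5.73 without it. This difference of 4.95 was not tested in the main fit. Orc1, the largest Orc subunit, stood at 7.79, 7.56 and 7.47 with Smo2 and 5.81, 5.18 and 6.06 without it. Without any limit on brightness 41 of 41 measured genes were called higher, which includes the 3 dim ones. In that fit 3306 of all 18194 genes were called higher and 3944 lower.

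The 6 MCM subunits of the helicase had a median change of 3.19. Mcm3 had 12.55, 12.49 and 12.52 with Smo2, against 7.87, 7.84 and 8.0 without it, a 24.6-fold difference (log2 change 4.62 ± 0.06 SE, limma adjusted p = 1.13e-06). Mcm6 and Mcm5 rose by 3.51 and 3.32, Mcm2 by 3.05, Mcm4 by 2.79 and Mcm7 by 1.62. The other bright Mcm7 probe sets gave 1.89 to 2.30. Cdc45, which joins MCM in the active helicase, had 10.04, 9.90 and 10.08 with Smo2, against 6.99, 6.40 and 6.58 without it (log2 change 3.35 ± 0.15 SE, limma adjusted p = 1.11e-05). The GINS genes rose by 1.65 (Gins3) to 2.79 (Gins1), and Mcm10, which acts in helicase activation, by 2.71.

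Among the polymerase and primase genes Pole and Pola1 had the largest changes. Pola1, the catalytic subunit of polymerase alpha and the only X-linked gene of the set, had 10.63, 10.68 and 10.61 with Smo2, against 7.85, 7.72 and 7.80 without it (log2 change 2.85 ± 0.06 SE, limma adjusted p = 1.41e-06). Pole, the catalytic subunit of polymerase epsilon, had 10.20, 10.39 and 10.47 with Smo2, against 7.07, 7.40 and 7.59 without it (log2 change 3.00 ± 0.14 SE, limma adjusted p = 1.3e-05). The other polymerase and primase genes rose by 1.5 (Prim2) to 2.83 (Pole2).

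The clamp loader held the smallest responses. Rfc4 had 11.96, 11.93 and 11.86 with Smo2, against 9.45, 9.49 and 9.46 without it (log2 change 2.45 ± 0.05 SE, limma adjusted p = 1.41e-06), and the clamp Pcna rose by 2.27. Rfc1, the large subunit of the same loader, rose by only 0.83, with 10.79, 10.79 and 10.84 with Smo2, against 9.93, 9.98 and 10.04 without it, and Rfc2 by 0.76. All 3 Rfc1 probe sets were called, with changes of 0.83, 0.48 and 1.63, so the size depends on the probe set. Of the proteins that coat single-stranded DNA, Rpa2 had 11.20, 11.08 and 11.21 with Smo2, against 8.15, 7.59 and 8.14 without it (log2 change 3.20 ± 0.16 SE, limma adjusted p = 1.41e-05), while Rpa1 rose by 1.77 and Rpa3 by 1.34. Fen1 and Lig1, which trim and seal Okazaki fragments, rose by 1.74 and 2.18.

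The 3 tested genes of nucleotide supply had a median change of 3.20. Thymidine kinase, Tk1, had 10.83, 10.77 and 10.87 with Smo2, against 6.93, 7.36 and 7.36 without it, a 12.2-fold difference (log2 change 3.60 ± 0.13 SE, limma adjusted p = 5e-06). The ribonucleotide reductase genes Rrm2 and Rrm1 rose by 3.20 and 2.62, and the dim thymidylate synthase Tyms had 7.79, 7.40 and 7.73 with Smo2, against 5.91, 5.54 and 5.64 without it. Chaf1b, a subunit of the assembly factor that places histones behind the fork, had 10.52, 10.44 and 10.48 with Smo2, against 7.03, 7.17 and 6.96 without it (log2 change 3.42 ± 0.07 SE, limma adjusted p = 1.41e-06).

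As the set moved together with Smo2, the promoters of 4 of its genes are shown with the letters of known cell cycle motifs. Promoter sequences, from 250 bases before to 50 bases after each start, came from RefSeq on GRCm38.p6 and covered 35 of the 42 genes. Capitals mark a match on either strand to an E2F type motif (TTTCCCGC, TTTCGCGC, TTTGGCGC or TTTGCCGC) or to the CCAAT box. Among the 38 tested genes Mcm3 had the largest change with Smo2 and Mcm6 the largest in the Chd7 mutant, the untested Cdc6 was dim on average but bright with Smo2, and Rfc1 was the one gene called in all 3 comparisons. The Mcm3 promoter lies at chr1:20820263-20820562 and the Mcm6 promoter at chr1:128359656-128359955, both on the minus strand, with the Cdc6 promoter at chr11:98907901-98908200 on the plus strand and the Rfc1 promoter at chr5:65335590-65335889 on the minus strand.
Mcm3: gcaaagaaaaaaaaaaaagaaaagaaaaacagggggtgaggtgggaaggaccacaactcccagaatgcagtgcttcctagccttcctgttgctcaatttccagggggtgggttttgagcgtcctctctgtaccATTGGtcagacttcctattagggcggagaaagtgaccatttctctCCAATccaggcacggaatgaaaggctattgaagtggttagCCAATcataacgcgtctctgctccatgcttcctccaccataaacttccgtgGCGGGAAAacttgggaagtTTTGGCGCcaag
Mcm6: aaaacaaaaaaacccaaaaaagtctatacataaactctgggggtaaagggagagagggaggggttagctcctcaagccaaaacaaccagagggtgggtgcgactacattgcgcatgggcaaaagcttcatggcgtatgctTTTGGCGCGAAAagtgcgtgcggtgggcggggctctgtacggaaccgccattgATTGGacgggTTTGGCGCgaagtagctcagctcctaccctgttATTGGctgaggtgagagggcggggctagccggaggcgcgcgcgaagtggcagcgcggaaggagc
Cdc6: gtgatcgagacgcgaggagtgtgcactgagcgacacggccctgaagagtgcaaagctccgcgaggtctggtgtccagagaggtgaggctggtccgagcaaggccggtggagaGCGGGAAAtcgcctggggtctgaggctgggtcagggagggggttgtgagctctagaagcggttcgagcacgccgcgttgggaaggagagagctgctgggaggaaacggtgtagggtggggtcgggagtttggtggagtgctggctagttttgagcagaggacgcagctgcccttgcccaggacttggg
Rfc1: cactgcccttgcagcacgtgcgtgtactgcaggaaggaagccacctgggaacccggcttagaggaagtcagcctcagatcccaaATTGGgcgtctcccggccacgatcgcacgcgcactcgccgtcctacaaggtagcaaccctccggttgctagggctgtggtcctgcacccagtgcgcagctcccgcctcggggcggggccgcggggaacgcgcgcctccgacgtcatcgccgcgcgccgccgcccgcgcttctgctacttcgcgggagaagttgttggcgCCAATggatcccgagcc

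Mcm3 held 2 E2F type matches, both after the start, and 3 CCAAT boxes, and Mcm6 held 3 E2F type matches, of which a pair overlap in 1 run of capitals, and 2 CCAAT boxes. Cdc6 held 1 E2F type match and no CCAAT box in this window, and Rfc1 held 2 CCAAT boxes and no E2F type match. Of the 35 genes, 13 (37.1%) had an E2F type match, against 2.6% of the 27025 genes in the promoter table, and 23 (65.7%) had a CCAAT box, against 41.1%. The core of the cell cycle homology region (TTTGAA, either strand) was found in 5 of the 35 (14.3%), against 20.2% of all genes. The 11 tested genes with an E2F type match had a median change with Smo2 of 2.59 (1.62 to 4.62), and the 20 tested genes without one 2.37 (0.83 to 3.60), so the ranges overlapped. A match describes letters and is no measure of binding.

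In the Chd7 mutant the replication genes were shifted upward by a much smaller amount. The median change was 0.32, against 0.0047 over all tested genes, and 35 of the 38 changes were positive. The limma test called 8 genes higher and 0 lower, against 5.07% of all genes higher and 3.82% lower. The 8 were Cdt1, Gmnn, Mcm6, Cdc45, Pola2, Prim1, Rfc1 and Rpa2, with changes from 0.39 to 0.90, and another 9 of the 38 had an unadjusted p under 0.05 without passing. By the same limma test 17 of the 38 genes and 2812 of all 10772 genes had an unadjusted p under 0.05. Averaged over the 38 genes, the log2 signal was 9.14 ± 0.23 in mutant arrays, against 8.81 ± 0.08 in control arrays (mean ± SD, n = 4 each). The control mean was the lowest of the 6 groups, and the mutant mean lay near those of DMSO (9.14) and no Smo2 (9.03). Groups of different comparisons were not tested against each other. In 14 genes every mutant array lay above every control array, against 10.4% of all genes.

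These calls moved with the way the arrays were grouped. A block for the replicate number gave 15 calls and added Mcm3, Mcm4, Gins2, Pole2, Pcna, Rrm1 and Rrm2, against 7.95% of all genes higher in that fit. Without any 1 array the count was 8 (mutant replicate 2), 4 (mutant replicate 1), 2 (control replicate 1 or 4) or 1 (mutant replicate 3 or 4, control replicate 2 or 3). Over all 10772 genes these fits called 311 to 400 higher, against 546 with every array. With the mean of each replicate set as 1 sample, limma called 0 genes of the set and 0 of all genes, so this fit cannot set the members apart. In it 9 genes of the set and 1122 of all genes had an unadjusted p under 0.05. The median change stayed between 0.25 and 0.41 when 1 array was left out.

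**Figure D2:**
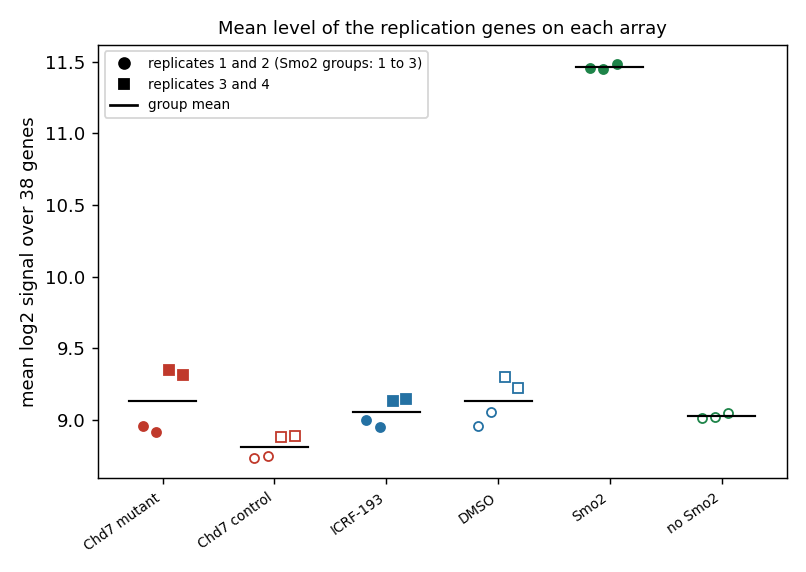
Mean log2 signal over the 38 tested replication genes on each of the 22 arrays (y axis), by group (x axis), with circles for replicates 1 and 2 and for all arrays of the Smo2 comparison, squares for replicates 3 and 4, and a line at the group mean. The Smo2 arrays lie near 11.46, the Chd7 mutant arrays lie above all control arrays, and replicates 3 and 4 lie above replicates 1 and 2 in the 4 groups that have them.

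Mcm6 showed the largest change of the set in the mutant. It had 10.16, 10.48, 10.995 and 10.79 in mutant arrays, against 9.63, 9.43, 9.86 and 9.90 in control arrays, a 1.86-fold difference (log2 change 0.90 ± 0.19 SE, limma adjusted p = 0.0237). Its other bright probe set gave 0.74 (limma adjusted p = 0.0164 when all probe sets are fitted). The other MCM subunits had changes of -0.03 (Mcm2) to 0.78 (Mcm3), none called without the block. The other bright Mcm2 probe set gave 0.36 (limma adjusted p = 0.397 when all probe sets are fitted), so its sign depends on the probe set. Mcm3 did not pass without a block (limma adjusted p = 0.281) and passed with the replicate number as one (0.0307), with the set as one (0.00568) and in replicates 3 and 4 alone (0.00466). Replicates 3 and 4 were high in both groups, with 7.75, 7.63, 9.14 and 9.09 in mutant arrays, against 7.06, 7.34, 8.06 and 8.05 in control arrays. Its 4 bright probe sets gave 0.58 to 1.5.

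In the licensing group Gmnn had 7.86, 7.90, 8.23 and 8.42 in mutant arrays, against 7.57, 7.30, 7.56 and 7.43 in control arrays (log2 change 0.64 ± 0.13 SE, limma adjusted p = 0.0254). Its partner Cdt1 had 10.40, 10.34, 10.47 and 10.40 in mutant arrays, against 10.03, 10.15, 9.78 and 9.70 in control arrays (log2 change 0.49 ± 0.10 SE, limma adjusted p = 0.0248), and a second Cdt1 probe set did not pass (0.25, limma adjusted p = 0.0776). The groups did not overlap in either gene. Orc2 and Orc6 had changes of 0.12 and 0.11, and the dim Cdc6 and Orc1 had overlapping groups.

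Of the genes that switch the helicase on, Gins2 had the largest change in the mutant, with 7.5, 6.99, 8.09 and 7.96 in mutant arrays, against 6.67, 6.23, 7.35 and 6.89 in control arrays (log2 change 0.85 ± 0.29 SE, limma adjusted p = 0.112, or 0.00441 with the replicate block). Each mutant array lay above the control array of its number, although the groups overlapped. Cdc45 was called at 0.44 ± 0.10 SE (limma adjusted p = 0.0356), with control replicate 4 at 6.66 and the other control arrays at 6.22 to 6.25. Gins3 and Mcm10 had changes of -0.17 and -0.08, and the other bright Gins3 probe set gave 0.07 (limma adjusted p = 0.716 when all probe sets are fitted).

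Primase and polymerase alpha gave 2 of the 8 calls. Prim1, the catalytic primase subunit, had 9.41, 9.58, 9.95 and 9.77 in mutant arrays, against 9.09, 9.13, 9.29 and 9.18 in control arrays (log2 change 0.50 ± 0.12 SE, limma adjusted p = 0.0325), and the accessory subunit Pola2 had a change of 0.39 (limma adjusted p = 0.0278). The other bright Prim1 probe set gave only 0.04 (limma adjusted p = 0.852 when all probe sets are fitted). Pole2, the second subunit of polymerase epsilon, had 7.80, 7.92, 8.41 and 8.44 in mutant arrays, against 7.46, 7.44, 7.98 and 7.56 in control arrays (log2 change 0.53 ± 0.18 SE, limma adjusted p = 0.109, or 0.0322 with the replicate block). The polymerase delta genes Pold1 and Pold2 had changes of 0.14 and 0.05.

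Of the clamp loader genes only Rfc1 was called in the mutant by the fit without a block. It had 10.38, 10.30, 10.92 and 10.85 in mutant arrays, against 9.64, 9.78, 10.03 and 10.04 in control arrays (log2 change 0.74 ± 0.17 SE, limma adjusted p = 0.0295), and 2 of its 3 probe sets were called. The third gave 0.27 (limma adjusted p = 0.351 when all probe sets are fitted). The 4 other loader subunits, Rfc2 to Rfc5, had changes of 0.01 to 0.18 on the probe sets used. Their other bright probe sets gave 0.25 for Rfc3, 0.23 for Rfc4, and -0.13 and 0.11 for Rfc2, none called. Rpa2 had 8.32, 8.11, 8.54 and 8.66 in mutant arrays, against 7.90, 7.87, 7.93 and 7.99 in control arrays (log2 change 0.48 ± 0.12 SE, limma adjusted p = 0.0386), while Rpa3 had a change of 0.02. The other bright Rpa2 probe set gave 0.39 and was not called (limma adjusted p = 0.355 when all probe sets are fitted). With the mean of bright probe sets neither Prim1 nor Rpa2 was called.

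Nucleotide supply and chromatin assembly gave no call in the mutant by the fit without a block. Rrm2, the regulated subunit of ribonucleotide reductase, had 10.09, 10.06, 10.88 and 10.78 in mutant arrays, against 9.71, 9.70, 10.28 and 10.23 in control arrays (log2 change 0.47 ± 0.24 SE, limma adjusted p = 0.248, or 0.0142 with the replicate block). Chaf1b had 6.71, 6.58, 7.49 and 7.41 in mutant arrays, against 6.93, 6.99, 6.74 and 6.68 in control arrays (log2 change 0.21 ± 0.22 SE, limma adjusted p = 0.58), so the mutant arrays were lower in replicates 1 and 2 and higher in replicates 3 and 4.

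**Figure D3:**
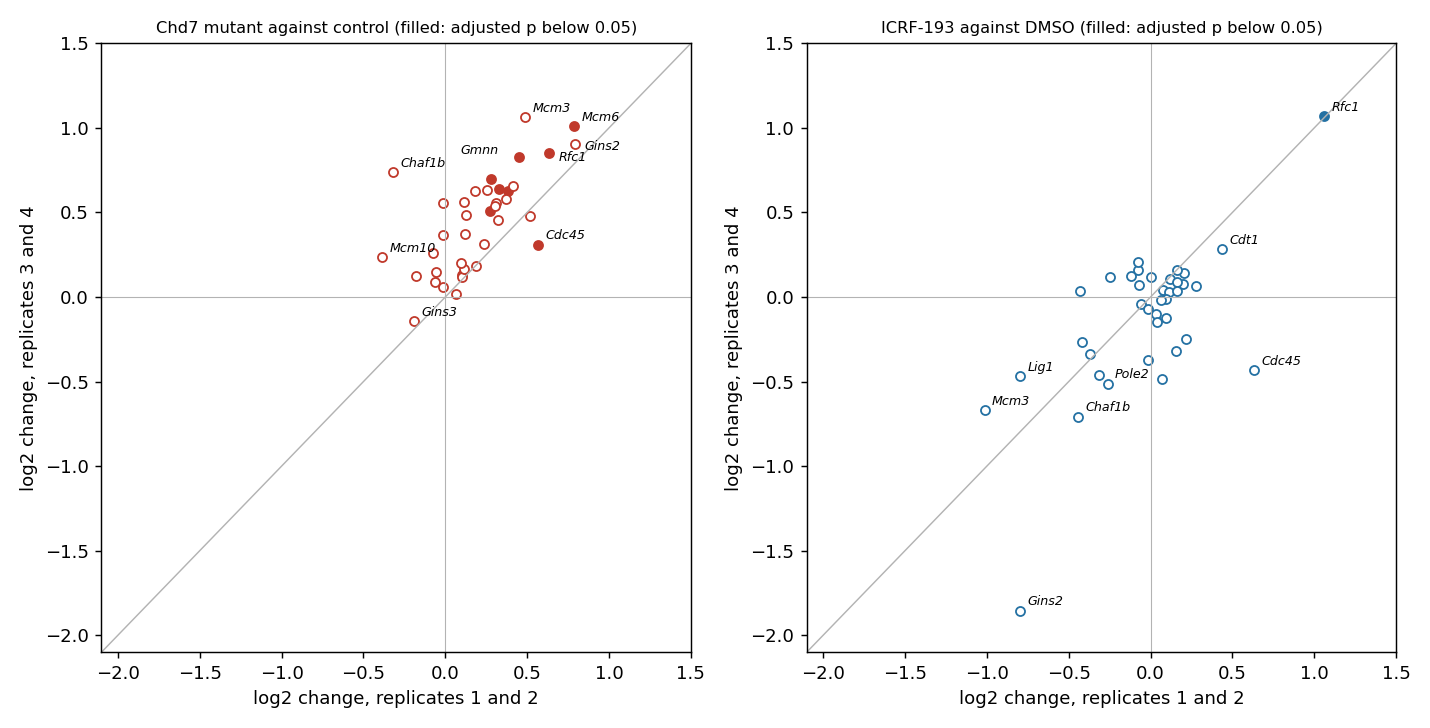
Log2 change of each of the 38 tested replication genes in replicates 3 and 4 (y axis) against its change in replicates 1 and 2 (x axis), for Chd7 mutant against control (left) and ICRF-193 against DMSO (right), with filled points for genes called over all 4 replicates and a line where both changes are equal. Most genes of the left panel lie above the line (medians 0.48 and 0.18), Chaf1b and Mcm10 lie left of 0 on the x axis, and Rfc1 lies on the line in the right panel at 1.06 and 1.07.

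Split by replicate set, the shift in the mutant was larger in replicates 3 and 4. The median change there was 0.48, with 17 of the 38 genes called higher and 0 lower, against 8.67% of all genes higher. In replicates 1 and 2 the median change was 0.18, with 5 called higher (5.92% of all genes) and 1 lower (Mcm10, -0.39, limma adjusted p = 0.0427). Of all 10772 genes, 481 were called lower in replicates 1 and 2 and 569 in replicates 3 and 4. Each of these fits set 2 arrays against 2. The difference between sets was itself called for 2 genes, Chaf1b (1.06, limma adjusted p = 0.00752) and Mcm10 (0.62, limma adjusted p = 0.0196), against 2.62% of all genes. Rfc1, Mcm6 and Rrm2 were called in both sets, Rfc1 at 0.63 and 0.85, Mcm6 at 0.79 and 1.01 and Rrm2 at 0.37 and 0.58, in replicates 1 and 2 and in replicates 3 and 4. The replication genes were also higher in replicates 3 and 4 within each of the 4 groups, in 32 of the 38 genes among mutant and 25 among control arrays, and in 27 among ICRF-193 and 27 among DMSO arrays, against 43.3% to 50% of all genes. With ICRF-193 the difference between sets was called by limma for 0 genes of the set and 0 of all genes, with 2 and 584 at an unadjusted p under 0.05.

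ICRF-193 gave no common shift. The median change of the 38 genes was -0.0068, against 0.0083 over all tested genes, with 19 changes positive and 19 negative. The limma test called 1 gene higher and 0 lower, against 3.14% of all genes higher and 3.46% lower. By that test 8 of the 38 genes had an unadjusted p under 0.05, as did 2083 of all 10772 genes. Without DMSO replicate 4 the count was 3, and it was 2 without DMSO replicate 1 or ICRF-193 replicate 3. Over all genes these fits called 282 higher and 320 lower, 224 and 262, and 228 and 289, in that order. Of the granule lineage markers 3 of 9 fell with ICRF-193, and their part in the result was not tested. The mean over the 38 genes was 9.06 ± 0.10 with ICRF-193 and 9.14 ± 0.16 with DMSO (mean ± SD, n = 4 each). A block for the replicate number gave 5 calls, Rfc1 and Cdt1 higher (4.28% of all genes) and Mcm3, Mcm4 and Lig1 lower (4.51% of all genes). In 2 genes, Rfc1 and Cdt1, every ICRF-193 array lay above every DMSO array (7.63% of all genes), and in Gins2 and Lig1 every ICRF-193 array lay below (6.64%).

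The called gene was Rfc1, which encodes the subunit that opens the Pcna clamp together with its partners. It had 11.28, 11.23, 11.39 and 11.43 with ICRF-193, against 10.15, 10.24, 10.41 and 10.27 with DMSO, a 2.09-fold difference (log2 change 1.07 ± 0.08 SE, limma adjusted p = 0.000129). All 3 of its probe sets were called, at 1.07, 1.08 and 0.66, and the change was 1.06 in replicates 1 and 2 and 1.07 in replicates 3 and 4. It was called without any 1 array, but not with the mean of each replicate set as 1 sample, where 0 genes of the set passed and 5 had an unadjusted p under 0.05 (smallest limma adjusted p = 0.0654). Over all 10772 genes that limma fit called 15 higher and 45 lower, and 1219 had an unadjusted p under 0.05. The other loader subunits had changes of -0.05 (Rfc3) to 0.10 (Rfc2) on the probe sets used, and Pcna had one of -0.05. Their other bright probe sets gave -0.37 for Rfc3, -0.32 and -0.20 for Rfc2 and 0.08 for Rfc4, none called.

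**Figure D4:**
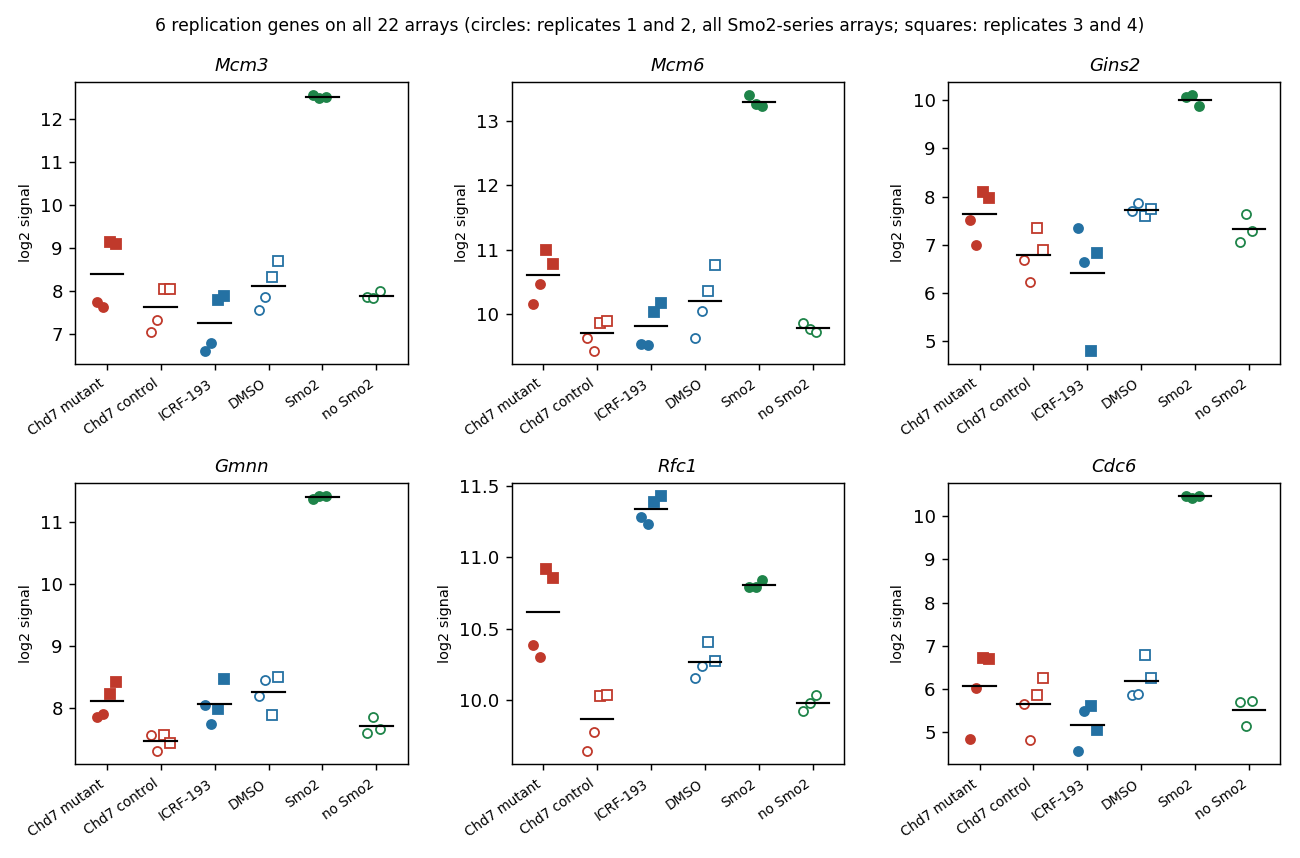
Log2 signal (y axis) of Mcm3, Mcm6, Gins2, Gmnn, Rfc1 and Cdc6 on all 22 arrays, by group (x axis), with circles for replicates 1 and 2 and for all arrays of the Smo2 comparison, squares for replicates 3 and 4, and a line at the group mean; each panel has its own scale. The Smo2 arrays are the highest in 5 panels, while for Rfc1 the ICRF-193 arrays are, at 11.23 to 11.43.

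With ICRF-193, 5 of the 6 MCM genes had a negative change (median -0.35), as did 2 of the 5 helicase activation genes (median 0.06), and none of the 11 was called without a block. Mcm3 had 6.62, 6.79, 7.80 and 7.89 with ICRF-193, against 7.57, 7.87, 8.32 and 8.70 with DMSO (log2 change -0.84 ± 0.35 SE, limma adjusted p = 0.237, or 0.00958 with the replicate block). Each ICRF-193 array was below the DMSO array of its number, and the 4 Mcm3 probe sets gave -1.36 to -0.84, of which 1 was called (-1.05, limma adjusted p = 0.0498). Mcm6, Mcm4 and Mcm2 had changes of -0.39, -0.35 and -0.34, and Mcm7 one of 0.14. Gins2 had 7.34, 6.64, 4.79 and 6.83 with ICRF-193, against 7.70, 7.87, 7.60 and 7.73 with DMSO (log2 change -1.33 ± 0.47 SE, limma adjusted p = 0.16). Its groups did not overlap, and ICRF-193 replicate 3 was by far the lowest. Gins1 and Gins3 had changes of 0.06 and -0.06, and Mcm10 and Cdc45 of 0.17 and 0.10.

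In the licensing group Cdt1 had 10.48, 10.46, 10.45 and 10.63 with ICRF-193, against 10.02, 10.04, 10.16 and 10.35 with DMSO (log2 change 0.36 ± 0.09 SE, limma adjusted p = 0.057, or 0.0323 with the replicate block). The dim Cdc6, which was not tested, had 4.55, 5.48, 5.61 and 5.06 with ICRF-193, against 5.85, 5.89, 6.78 and 6.25 with DMSO. Its groups did not overlap, with the ICRF-193 arrays lower. Gmnn, Orc2 and Orc6 had changes of -0.20, 0.06 and 0.11.

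Okazaki fragment joining held the other gene with separate groups. DNA ligase Lig1 had 8.52, 9.17, 9.13 and 8.89 with ICRF-193, against 9.54, 9.74, 9.73 and 9.23 with DMSO (log2 change -0.63 ± 0.17 SE, limma adjusted p = 0.0678, or 0.0337 with the replicate block). Chaf1b had 6.61, 6.44, 6.89 and 6.28 with ICRF-193, against 6.73, 7.21, 7.26 and 7.33 with DMSO (log2 change -0.57 ± 0.17 SE, limma adjusted p = 0.0936). The RPA genes and Fen1 had changes of -0.04 to 0.06.

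The polymerase and nucleotide genes showed small changes with ICRF-193. Pole2 had 7.30, 7.29, 7.39 and 7.45 with ICRF-193, against 7.80, 7.32, 8.16 and 7.71 with DMSO (log2 change -0.39 ± 0.16 SE, limma adjusted p = 0.225). Prim2, the large primase subunit, had 9.29, 8.92, 9.13 and 9.09 with ICRF-193, against 8.80, 9.11, 9.38 and 9.47 with DMSO (log2 change -0.08 ± 0.15 SE, limma adjusted p = 0.844). These groups overlapped in both genes. Tk1 had 6.90, 7.01, 7.43 and 7.58 with ICRF-193, against 6.57, 7.19, 7.86 and 8.12 with DMSO (log2 change -0.21 ± 0.33 SE, limma adjusted p = 0.801), and Rrm1 and Rrm2 had changes of 0.02 and 0.16.

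The changes were then set against each other, in limma fits of the difference between comparisons that share no arrays. The change in the Chd7 mutant exceeded that with ICRF-193 for 5 genes, Lig1 (by 1.06, adjusted p = 0.0146), Mcm4 (by 0.80, adjusted p = 0.0326), Mcm6 (by 1.29, adjusted p = 0.0327), Gins2 (by 2.18, adjusted p = 0.0433) and Pole2 (by 0.92, adjusted p = 0.0435), against 6.49% of all genes with a difference in either direction. In each of these the mutant's change was positive and that with ICRF-193 negative. The count was 1 without control replicate 1 or 2, mutant replicate 3 or 4, DMSO replicate 4 or ICRF-193 replicate 2, 2 without control replicate 4, DMSO replicate 3 or ICRF-193 replicate 1, and 3 without DMSO replicate 1. Over all genes these fits called 328 to 391 differences positive and 210 to 261 negative, against 417 and 282 with every array. The Smo2 change exceeded the mutant's for 37 of the 38 genes, against 50.7% of all genes with a difference, and exceeded that with ICRF-193 for 37, against 49.9%. Rfc1 was the exception in both, with a difference of 0.08 ± 0.21 SE between Smo2 and the mutant (limma adjusted p = 0.761) and of -0.24 ± 0.10 SE between Smo2 and ICRF-193 (limma adjusted p = 0.0664). As a description over the 38 genes, which share arrays and depend on each other, the change in the mutant correlated with that of Smo2 at Pearson's r = 0.49 and Spearman's rho = 0.50, and the change with ICRF-193 correlated with that of Smo2 at r = -0.47 and rho = -0.36.

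Other cell cycle genes were counted from lists that do not overlap the set. Of 37 further replication genes tested, 31 rose with Smo2 (29.7% of all genes) and 3 fell (39% of all genes), namely Tk2, Pold4 and Rrm2b. Tk2 and Rrm2b serve nucleotide supply in cells outside S phase. Tk2 averaged 8.99 with Smo2 and 9.73 without it (limma adjusted p = 8.72e-05), and Rrm2b averaged 9.48 with Smo2 and 9.89 without it (limma adjusted p = 0.0178). In the Chd7 mutant 5 of these 37 rose and 1 fell (5.07% and 3.82% of all genes), with a median of 0.11. With ICRF-193 1 rose and 1 fell (3.14% and 3.46% of all genes). Rnaseh2b, a subunit of the enzyme that removes ribonucleotides from DNA, rose in all 3 comparisons, by 0.49 in the mutant (limma adjusted p = 0.00994), 0.40 with ICRF-193 (limma adjusted p = 0.0292) and 1.13 with Smo2 (limma adjusted p = 1.85e-05). Dscc1, a part of an alternative clamp loader, fell by 0.71 with ICRF-193 (limma adjusted p = 0.0246).

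Among 30 G1/S regulators, 4 rose and 3 fell in the mutant (5.07% and 3.82% of all genes), and 1 rose with ICRF-193 (3.14%). With Smo2 24 rose and 3 fell (29.7% and 39% of all genes). Ccnd1, the D-type cyclin that opens the way into S phase, averaged 9.01 ± 0.21 in mutant arrays, against 7.96 ± 0.06 in control arrays (mean ± SD, n = 4 each, limma adjusted p = 0.0011), and 13.13 ± 0.03 with Smo2 and 7.40 ± 0.17 without it (n = 3 each, limma adjusted p = 1.13e-06). Mycn, a hedgehog target in these progenitors, rose by 0.71 with ICRF-193 (limma adjusted p = 0.0154).

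Of 29 mitosis and G2/M genes, all 29 rose with Smo2 (median 3.14), against 29.7% of all genes. In the mutant 2 rose (Foxm1 and Plk1, median 0.48), against 5.07% of all genes. With ICRF-193 1 rose (Ccnb2, median 0.44), against 3.14% of all genes. With ICRF-193 the median of the mitosis genes was thus positive while that of the replication genes was -0.0068, and the difference between the lists was not tested. Mki67, a marker of cycling cells, had a change of 0.53 with ICRF-193 (limma adjusted p = 0.441, or 0.00714 with the replicate block). In the mutant Mki67 had one of 0.58 (limma adjusted p = 0.432, or 0.0319 with the block), and Top2a, the topoisomerase II of dividing cells, one of 0.68 (limma adjusted p = 0.279, or 0.00338 with the block). By immunostaining of cultured granule cells, the paper found the shares of proliferating and of differentiated cells without statistical difference between wild type and mutant. The part of dividing cells in the array values was not tested. With set means as samples, limma called 0 of all 10772 genes in the mutant, of which 1122 had an unadjusted p under 0.05.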

How the data were processed

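RNA of 22 samples was hybridised to 22 arrays. The authors deposited 1 linear intensity for each of 45101 probe sets, made with software and a normalization not given in the sources used here. On every array the mean after trimming 2% at each end was 500. The intensities were floored at 16, taken to log2 and quantile normalized, since array medians ranged from 6.33 to 6.81. Of the probe sets 34958 carry 1 gene symbol, 932 several (left out) and 9211 none. None of 231 pairs of arrays was identical (0). Groups were compared by two-sided limma tests (version 3.58.1, R 4.3.3), and p-values were adjusted after Benjamini-Hochberg over the 10772 genes, with calls under 0.05.

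The members, lists, motifs and replicate sets were chosen with earlier results of these data known. All genes are accounted for by 9 roles, with every array for the gene of the largest change per role and comparison, and up to 4 called genes from each other list. Deviations of equally numbered arrays correlated by 0.39 to 0.42 (Chd7) and 0.28 to 0.41 (ICRF-193), so fits with the number as a block are given, but arrays of another number in the same set correlated by 0.38 to 0.44 and 0.30 to 0.35. With Smo2 the numbers did not pair arrays (-0.01 to 0.03). The fits were tested on simulated data. Alternatives changed the normalization, filter, floor, probe set, variance model, test, threshold and arrays, as given in the closing section. Promoters were searched and figures drawn with Python 3.11.15 and matplotlib 3.10.9.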

Additional observations from a re-analysis of the deposited data

Results flagged for a closer look

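In 164 groups of 4 arrays, for 41 genes, 10 had an array whose gap to its nearest neighbour took up more of the group's range than Dixon's critical value allows, and chance flags about 1 group in 20. In Chd7 mutant arrays these were Lig1 in replicate 3 (9.91, the others 9.48 to 9.54), the dim Orc1 in replicate 1 (6.47, the others 4.80 to 4.94) and Pold2 in replicate 4 (9.0, the others 9.14 to 9.15). In control arrays they were Cdc45 in replicate 4 (6.66, the others 6.22 to 6.25) and Fen1 in replicate 3 (8.38, the others 9.79 to 10.08). With ICRF-193 they were Cdt1 in replicate 4 (10.63, the others 10.45 to 10.48), Gins3 in replicate 1 (6.62, the others 7.15 to 7.24) and Mcm2 in replicate 3 (9.13, the others 7.73 to 7.96). With DMSO they were Fen1 (10.34, the others 9.81 to 9.82) and Rfc4 (9.67, the others 9.77 to 9.80) in replicate 1.

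The change in the Chd7 mutant differed between replicate sets for 2 genes, by the limma test of that difference. It was larger in replicates 3 and 4 than in replicates 1 and 2 by 1.06 for Chaf1b and by 0.62 for Mcm10.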

How the results depend on the processing

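With Smo2 the call of all tested replication genes held under each alternative run, the replicate block included (38 of 38), and their median change of 2.60 was 2.62 on deposited values without quantile normalization, 2.80 on median-centred arrays, 2.59 without a filter or with a limit 1 higher, 2.52 with the most variable probe set, 2.63 with normalization within the comparison, and 2.58 to 2.62 without 1 array. In the Chd7 mutant the 8 calls became 15 with the replicate block, 18 with the set as a block, 17 in replicates 3 and 4 alone, 5 with the most variable probe set, 4 by the methods' t-test with unadjusted p and a fold limit, 1 by that test after adjustment, 1 without a filter, 0 at an adjusted p under 0.01 (17 of the 38 genes had an unadjusted p under 0.05), 0 with set means, and 1 to 8 without 1 array. With ICRF-193 the 1 call became 5 with the replicate block or in 1 fit over all 22 arrays, 4 with the set as a block or at an adjusted p under 0.1, 3 with a trended robust variance, 2 with a limit 1 higher, in replicates 1 and 2 alone or by the methods' t-test with unadjusted p, 0 with set means, and 1 to 3 without 1 array. The 2 genes that differed between sets became 1 with the limit 1 higher and 1 with the most variable probe set. Over all genes the limit 1 higher gave 175 positive and 160 negative differences and the most variable probe set 55 and 78, against 143 and 139. Without 1 array, a set of a group holds a lone array that is assumed to vary like the others, so no count is given. The 5 genes that differed between the mutant and ICRF-193 became 1 without a filter and 1 to 5 without 1 array. Over all genes these differences were 354 positive and 223 negative without a filter, and 328 to 401 and 210 to 274 without 1 array, against 417 and 282. The cause of these moves was not tested. With Smo2 the alternatives called 1713 (unadjusted t-test with a fold limit) to 4052 (median-centred arrays) of all genes higher, and 3306 without a filter. Over all genes the mutant split was 546 higher and 412 lower, against 391 and 551 on median-centred arrays. In the mutant, higher calls over all genes were 856 with the replicate block and 1354 with the set as a block. They were 934 in replicates 3 and 4 alone, 341 with the most variable probe set and 472 without a filter. By the methods' t-test they were 360 with unadjusted p and a fold limit, and 434 after adjustment. At an adjusted p under 0.01 they were 175, with set means 0, and without 1 array 311 to 400. With ICRF-193 the calls over all genes were 461 higher and 486 lower with the replicate block, and 653 and 602 in 1 fit over all arrays. They were 649 and 614 with the set as a block, 518 and 512 at an adjusted p under 0.1, and 450 and 421 with a trended robust variance. The limit 1 higher gave 338 and 379, replicates 1 and 2 alone 123 and 181, and the unadjusted t-test 262 and 300. Set means gave 15 and 45, and leaving 1 array out 217 to 282 and 262 to 320. Alternatives for the differences were chosen after seeing the data. No called gene changed direction. Intensities near background limit Orc1, Cdc6 and Tyms.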
